A study of Pinus pinaster with 18 samples.

Results

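The earliest pair of stages in a study of maritime pine (*Pinus pinaster*) embryos set somatic against zygotic embryos, and it is described here across transcripts. The pair holds 6 of the 18 libraries of the study, 3 labelled ES1 and 3 labelled PC. Transcripts were used if they passed 2 CPM (a count as a share of its library's total, on the usual CPM scale) in at least 3 of these 6 libraries, which kept 22588 of the 287424 transcripts in the table. ES1 embryos were translucent somatic embryos of the embryogenic line PN519, taken after 4 to 6 weeks on a maturation medium held at 24 °C in the dark, with 80 µM abscisic acid (ABA), 68 g/L sucrose and 9 g/L Phytagel. PC embryos were pre-cotyledonary zygotic embryos, excised in early to mid-July 2015 from seeds of 1 seed orchard. PN519 is a single line, so embryo type in these libraries is tied to genotype, culture and harvest, and these cannot be told apart. Developmental stage cannot be told apart from embryo type either, since the labels call ES1 an early stage and give the word pre-cotyledonary to PC and to the later somatic stage ES2. Both technical replicas and independent biological samples are mentioned in the methods, and nothing in the labels tells which kind the 3 libraries of a group represent. The tests therefore compare embryo types with a spread between libraries that may be technical. The next pair of stages, opaque pre-cotyledonary ES2 somatic embryos (6 to 10 weeks on the same medium) and early cotyledonary EC zygotic embryos (mid to late July), serves below to test where the difference between embryo types itself differed.

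Conifer embryos grow from a mass of dividing cells at the tip of a suspensor, form a ring of cotyledons around the shoot apex, and then stop dividing, fill with reserves and acquire tolerance to drying. Zygotic embryos do this inside the seed, next to the megagametophyte that feeds them, whereas somatic embryos rely on the sugar, nitrogen, osmotic strength and ABA of the medium. Cell division and the regulators that place cotyledons and meristems belong to the early part of this programme, and storage and dehydration proteins are typical of its later part.

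Total counts were 22725467 to 30897160 in ES1 and 27744504 to 32008643 in PC, with 24704 to 25194 transcripts detected per library. Library scaling factors (TMM, the trimmed mean of M values) were 0.925 to 0.965 in ES1 and 1.04 to 1.06 in PC. Libraries of 1 embryo type correlated at 0.977 to 0.987 (ES1) and 0.968 to 0.982 (PC) on log2 CPM, against 0.708 to 0.748 between the types, and pairs of libraries differed by more than sampling noise. Of the tested transcripts, 5303 (23.5%) were higher and 3373 (14.9%) were lower in ES1, where a call needs an adjusted p under 0.05 (edgeR's quasi-likelihood test, Benjamini-Hochberg adjustment over all 22588) together with an at least 2-fold difference (a log2 fold change beyond 1 in either direction). Without the fold threshold 7389 (32.7%) were higher and 6981 (30.9%) lower. The median log2 fold change was -0.04. Scaling by library size alone moved it to -0.19, and the calls then split into 4868 higher and 4070 lower. Changes above 5 on the log2 scale were about as common in either direction, with 564 higher and 474 lower transcripts. In 7982 of the 22588 transcripts every ES1 library lay above every PC library, and in 7959 below. Groups without overlap were thus the usual case, also among transcripts that were not called.

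A protein name was at hand for 1546 tested transcripts, which carry 734 different names, each a best match that is mostly from another species. These names come from the study's own tables of co-expression modules and hub genes, built on these samples. They are mostly those of the blue module (750 transcripts) and the brown module (384 transcripts). Of the tested blue transcripts 16 were higher and 1559 lower in ES1, and of the brown ones 1454 were higher and 44 lower. A list filled from such a table is therefore no independent evidence of its direction. Among named transcripts 582 (37.6%) were higher and 666 (43.1%) lower, and these shares are the background for every list below. With counts summed over transcripts of the same name, 247 of the 734 names (33.7%) were higher and 317 (43.2%) lower. Values below are CPM after TMM scaling, given in the order ES1 libraries A, B and C, then PC libraries 1, 2 and 3. Each fold change is ES1 over PC with its standard error (SE, n = 3 and 3). Transcript lengths are not in the table, so levels are compared between libraries and not between genes.

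**Figure D1:**
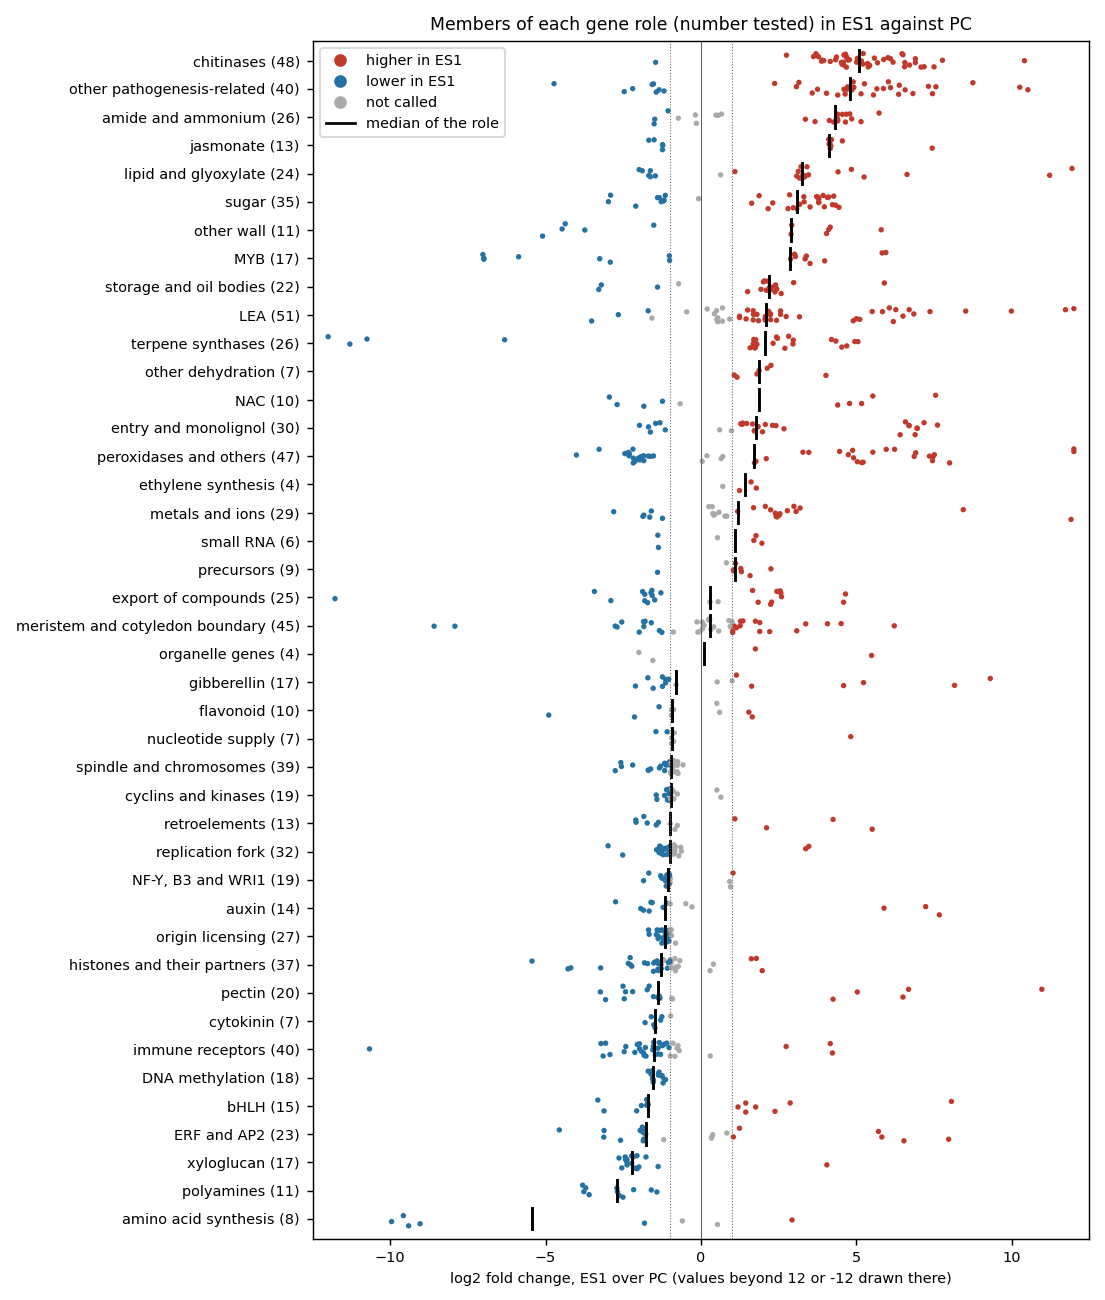
Log2 fold change, ES1 over PC, of each tested member of the gene roles described in the text (number of members in brackets), coloured by call, with the median of each role as a black bar and dotted lines at the fold threshold. All 18 DNA methylation members and all 11 polyamine members lie left of the threshold and 47 of 48 chitinases lie right of it, while the copies of MYB, NAC and bHLH factors fall on both sides. Fitted values of transcripts with almost no counts in 1 group are imprecise.

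Transcripts of the DNA replication machinery were mostly lower in ES1. Origin licensing proteins, which load the replicative helicase before S phase, had 23 of 27 members lower and 0 higher, with a median log2 fold change of -1.17. All 27 were lower once the fold threshold was dropped, and 23 of the 27 come from the blue table. A copy of MCM5, a subunit of that helicase (ppt_62928), had 36.9, 35.4 and 33.01 CPM in ES1, against 85.1, 83.05 and 81.7 CPM in PC (log2 fold change -1.25 ± 0.09 SE, adjusted p = 1.8e-05). Origin recognition complex subunit 1 (ppt_235651), which marks origins, had 101, 102 and 88.1 CPM in ES1, against 214, 204 and 208 CPM in PC (log2 fold change -1.10 ± 0.10 SE, adjusted p = 3.5e-05). In both, every ES1 library lay below every PC library, and the spread within a group was small beside the difference. The 2 copies of CDT1, the loading factor for the helicase (ppt_224321 and ppt_224322), averaged 17.4 ± 0.548 and 21.6 ± 0.657 CPM in ES1, against 41.6 ± 3.88 and 49.6 ± 4.85 CPM in PC (SD, n = 3). Leaving out 1 library put the number of lower licensing members at 17 to 26.

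At the replication fork 16 of 32 members were lower and 2 higher, with a median of -0.99, and 30 were lower with no fold threshold. By name 53.3% of the fork and 40% of the nucleotide supply were lower, near the 43.2% of all names, beside 90% for origin licensing. The DNA primase large subunit, which starts each new strand, had 4 copies, all lower, that summed to 182, 169 and 142 CPM in ES1, against 408, 427 and 382 CPM in PC. Replication protein A (ppt_285974), which coats single-stranded DNA, had 24.8, 20.03 and 23.5 CPM in ES1, against 142, 126 and 124 CPM in PC (log2 fold change -2.52 ± 0.12 SE, adjusted p = 3.1e-06). Both higher members carried 1 name, the catalytic subunit of DNA polymerase epsilon from cacao. One of them (ppt_218516) had 97.6, 75.1 and 74.6 CPM in ES1, against 8.24, 6.83 and 7.31 CPM in PC (log2 fold change 3.47 ± 0.16 SE, adjusted p = 2.4e-06), whereas the copy named after the *Arabidopsis* subunit was lower (log2 fold change -1.34). Nucleotide supply held 7 members, of which a ribonucleotide reductase small chain (ppt_54841) was higher, with 4.98, 4.50 and 4.37 CPM in ES1, against 0.164, 0.0693 and 0.238 CPM in PC (log2 fold change 4.82 ± 0.42 SE, adjusted p = 3.7e-05), and dUTPase (ppt_153292) and another ribonucleotide reductase (ppt_70387) were lower. With library size alone as scaling 6 of the 7 were lower. The lower reductase fell short of the fold threshold without PC library 3, which left dUTPase as the 1 lower member.

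Genes of mitosis were called lower about as often as named transcripts at large. Spindle and chromosome proteins had 14 of 39 members lower and 0 higher (median -0.96), and all 39 were lower with no fold threshold. Cyclins and their kinases had 9 of 19 lower and 0 higher (median -0.97), and with no fold threshold 16 were lower and 2 higher. By name 42.9% of the spindle and 40% of the cyclin names were lower, beside 43.2% of all names. Scaling by library size alone raised these counts to 28 and 16, and leaving out 1 library gave 14 to 18 for the spindle and 5 (without ES1 C) to 13 (without ES1 A) for the cyclins. Cyclin-D3-1 (ppt_161913), which drives entry into the cycle, had 12.8, 13.9 and 11.97 CPM in ES1, against 38.03, 35.4 and 30.5 CPM in PC (log2 fold change -1.43 ± 0.14 SE, adjusted p = 5.6e-05). A cyclin B1 match (ppt_52823), which acts at mitosis, had 36.04, 41.2 and 31.7 CPM in ES1, against 69.2, 70.7 and 81.2 CPM in PC (log2 fold change -1.02 ± 0.13 SE, adjusted p = 0.00023), and missed the fold threshold without ES1 C (-0.96) or PC 3 (-0.94). The spindle and chromosome list also matched TORTIFOLIA1 (ppt_208371), a microtubule-binding protein that keeps organs from twisting in *Arabidopsis* and is not particular to mitosis. It lay below the median of that list, with 15.5, 19.2 and 15.5 CPM in ES1, against 51.1, 55.6 and 55.8 CPM in PC (log2 fold change -1.70 ± 0.13 SE, adjusted p = 1.8e-05). The kinesins differed by less, with log2 fold changes of -1.02 to -0.74 in those listed as kinesin-like proteins or kinesin 14. In whole embryos, fewer dividing cells and less of these RNAs per cell cannot be told apart, and the same holds for each list below.

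All 18 members of the DNA methylation list were lower in ES1, over 9 names, and all 18 remained so in every fit that left out 1 library. Their median log2 fold change was -1.53, with a narrow range of -1.70 to -1.14, and 17 come from the blue table. CMT, a chromomethylase that methylates cytosines outside CG sites, had 5 copies summing to 696, 697 and 617 CPM in ES1, against 1994, 1927 and 2010 CPM in PC. One copy (ppt_199487) had 277, 276 and 262 CPM in ES1, against 809, 796 and 854 CPM in PC (log2 fold change -1.59 ± 0.09 SE, adjusted p = 5e-06). DRM2, the methyltransferase guided by small RNAs, had 4 lower copies that summed to 66.9, 64.6 and 59.99 CPM in ES1, against 201, 205 and 162 CPM in PC. MET, which copies CG methylation after replication, had a log2 fold change of -1.70. The chromatin remodeller DDM1, needed for methylation of packed DNA in *Arabidopsis*, was lower under 3 names, and its match from field mustard (ppt_91298) had 99.4, 92.1 and 88.5 CPM in ES1, against 248, 244 and 232 CPM in PC (log2 fold change -1.37 ± 0.09 SE, adjusted p = 1e-05). MOM1, a silencing factor, also was lower (-1.22).

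Histones and their partners were lower in 23 of 37 members and higher in 3 (median -1.28). Histone H2A (ppt_161591) had 173, 150 and 164 CPM in ES1, against 477, 450 and 435 CPM in PC (log2 fold change -1.49 ± 0.10 SE, adjusted p = 9.2e-06). High mobility group B protein 7, a DNA-bending chromatin protein, was lower in 7 of 8 transcripts under 2 names, and ppt_230052 had 4.91, 5.16 and 5.85 CPM in ES1, against 25.8, 27.1 and 21.6 CPM in PC (log2 fold change -2.23 ± 0.16 SE, adjusted p = 1.4e-05). Those higher were 1 copy of histone H3.3, a replacement histone laid down outside replication, and both copies of a SWI/SNF-related remodeller (ppt_48553, log2 fold change 1.78). Of the 6 members of small RNA pathways, DCL3a (ppt_205010) and HYL1 (ppt_37288), which cut small RNAs or help to do so, were lower with log2 fold changes of -1.39 and -1.38. SGS3 (ppt_136740), which stabilizes templates for secondary small RNAs in *Arabidopsis*, was higher with 9.12, 11.3 and 8.65 CPM in ES1, against 2.32, 3.40 and 2.82 CPM in PC (log2 fold change 1.77 ± 0.23 SE, adjusted p = 0.00028). Retroelement transcripts, which DNA methylation is known to restrain, moved both ways, with 4 of 13 higher and 6 lower.

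**Figure D2:**
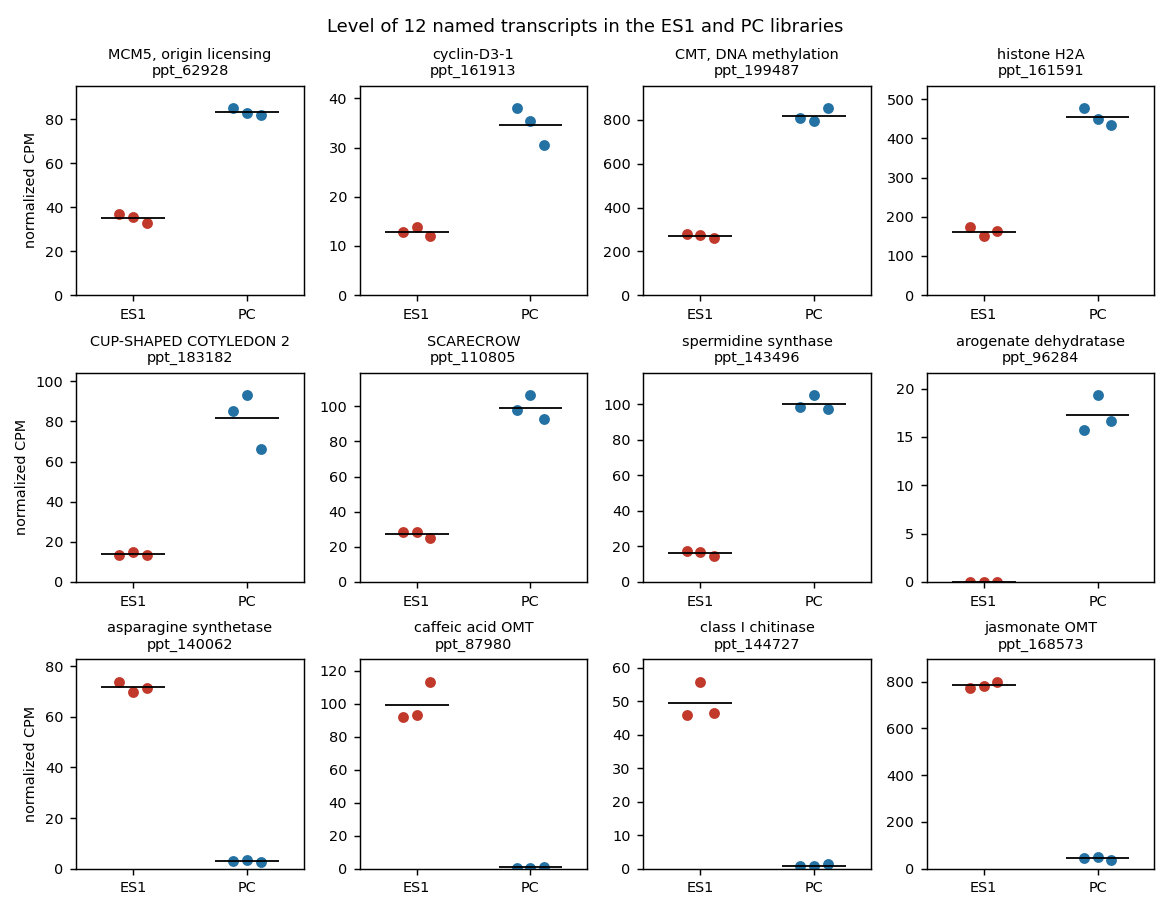
Normalized CPM in each ES1 and PC library (points, replicates A, B, C and 1, 2, 3 from left to right) for 12 named transcripts, with the group mean as a bar and each axis starting at 0. The top 2 rows are lower in ES1 and the bottom row is higher, and in none of the 12 do the groups overlap.

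Regulators of maturation were mostly lower in ES1. In the list of NF-Y subunits, B3-domain factors and WRI1, 14 of 19 members were lower and 1 higher, with a median of -1.06 and 16 members from the blue table. By name 6 of 8 were lower and 0 higher. With 1 library left out, 11 to 15 members were lower and 0 to 3 higher. All 9 copies of NFYA4, a subunit of the CCAAT-binding NF-Y complex, were lower, between -1.30 and -1.03, and summed to 189, 175 and 219 CPM in ES1, against 445, 432 and 368 CPM in PC. WRI1 (ppt_105911), the activator of fatty acid synthesis in seeds, had 24.9, 26.2 and 21.4 CPM in ES1, against 79.4, 95.8 and 85.8 CPM in PC (log2 fold change -1.85 ± 0.12 SE, adjusted p = 1e-05). A B3-domain protein (ppt_1971) had 51.1, 47.9 and 57.04 CPM in ES1, against 109, 113 and 112 CPM in PC (log2 fold change -1.10 ± 0.10 SE, adjusted p = 4.2e-05). The ninja-family protein 8, of a family that restrains ABA responses in *Arabidopsis*, was the exception, with 1 of 3 copies called (ppt_252204, log2 fold change 1.03 ± 0.14 SE, adjusted p = 0.0003). That call was lost without ES1 B (0.95) and with library size as scaling.

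The patterning list, by contrast, split, with 16 of 45 members higher and 12 lower (median 0.28). Leaving out 1 library gave 12 to 19 higher and 11 to 12 lower. Factors of organ boundaries and cell layers were found on both sides. CUP-SHAPED COTYLEDON 2 (ppt_183182), which separates cotyledons in *Arabidopsis* and was picked here after its values were seen, had 13.5, 14.97 and 13.3 CPM in ES1, against 85.2, 93.2 and 66.2 CPM in PC (log2 fold change -2.55 ± 0.15 SE, adjusted p = 6.6e-06). NAC domain-containing protein 100 (ppt_183181) had 7.02, 5.90 and 8.38 CPM in ES1, against 46.4, 56.1 and 35.8 CPM in PC (log2 fold change -2.70 ± 0.21 SE, adjusted p = 2.1e-05). SCARECROW (ppt_110805), which specifies the endodermis and stem cell niche of roots, had 28.4, 28.6 and 25.1 CPM in ES1, against 97.8, 106 and 92.5 CPM in PC (log2 fold change -1.85 ± 0.11 SE, adjusted p = 6e-06). ESR1 and CRINKLY4-related 3, which act in shoot formation and epidermis in other species, were lower too (-1.84 and -1.99). Higher were LOB domain-containing protein 10 (2.21), GLABRA 2 (1.89), a homeodomain factor of the epidermis, all 3 copies of STRUBBELIG-receptor family 8 and SPL2 (3.08 and 3.37), of a family that times phase changes. FT-like protein (ppt_247234), of the flowering-signal family that in conifers is tied to growth and bud set, had 112, 101 and 150 CPM in ES1, against 7.59, 9.25 and 4.81 CPM in PC (log2 fold change 4.07 ± 0.27 SE, adjusted p = 9.8e-06). Clavata 1-like proteins (4 transcripts, -0.03 to 0.32) and MFT1-like protein (2 transcripts, -0.13 and -0.10), a seed germination regulator, were not called.

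Cytochromes P450 of the CYP78A family, which promote organ growth in flowering plants, differed by copy. CYP78A4 (ppt_55036) had 185, 191 and 139 CPM in ES1, against 6.80, 6.72 and 9.03 CPM in PC (log2 fold change 4.51 ± 0.19 SE, adjusted p = 1.8e-06). CYP78A141 (ppt_161397) had 336, 312 and 265 CPM in ES1, against 957, 996 and 826 CPM in PC (log2 fold change -1.60 ± 0.13 SE, adjusted p = 2.2e-05), yet another transcript of that name (ppt_161403) went the other way with 5.26, 6.53 and 7.78 CPM in ES1, against 3.24, 2.98 and 2.67 CPM in PC (log2 fold change 1.14 ± 0.24 SE, adjusted p = 0.0037).

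Of the 63 transcription factors that the study lists as hubs of its modules, 55 were tested, with 8 higher and 44 lower. The hubs were chosen on these samples, so this count repeats the choice. Lower were all 7 hub HMG proteins, 9 of 10 hub ERFs, 6 of 7 hub MYBs and both bHLH62 copies. The copy of bHLH62 named by the rule (ppt_202456) had 8.98, 10.2 and 12.1 CPM in ES1, against 86.2, 101 and 124 CPM in PC (log2 fold change -3.32 ± 0.18 SE, adjusted p = 4.6e-06). Among NAC factors, which include regulators of boundaries and of secondary walls, 3 of 5 hubs were higher, and NAC protein 1 (ppt_58155) had 76.6, 78.4 and 80.1 CPM in ES1, against 4.58, 4.23 and 2.38 CPM in PC (log2 fold change 4.40 ± 0.24 SE, adjusted p = 4.6e-06). In the wider family lists, which hold some of the hubs, ERF and AP2 factors had 6 of 23 members higher and 12 lower, MYB factors 9 of 17 higher and 8 lower, and bHLH factors 7 of 15 higher and 8 lower. Names separated the directions within a family. The 4 copies of ERF1A, a factor of ethylene and defence responses, were higher, with means of 6.26 to 10.9 CPM in ES1 and 0.0198 to 0.178 CPM in PC, and the 3 copies of the CBF7-like factor, a cold-response regulator, were lower and summed to 9.30, 4.94 and 6.49 CPM in ES1, against 41.7, 46.6 and 152 CPM in PC. PC 3 held over 3 times the sum of either other PC library. Likewise RADIALIS (ppt_87713), a small MYB, had 24.2, 16.6 and 15.3 CPM in ES1, against 0.262, 0.208 and 0.416 CPM in PC (log2 fold change 5.95 ± 0.33 SE, adjusted p = 5.3e-06), whereas 4 transcripts named TT2 or MYB31 averaged 0.0430 to 0.0799 CPM in ES1 and 4.83 to 7.23 CPM in PC.

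Hormone genes differed by pathway step. Cytokinin receptors and signal carriers were lower in 6 of 7 members (median -1.48). The 3 copies of a CHASE-domain histidine kinase, the receptor type for cytokinin, summed to 95.96, 95.1 and 89.2 CPM in ES1, against 251, 243 and 239 CPM in PC. Ent-kaurenoic acid oxidase, a step of gibberellin synthesis, was lower in all 5 copies (-1.24 to -1.04), and summed to 40.1, 48.4 and 44.5 CPM in ES1, against 99.3, 108 and 91.00 CPM in PC. Of 3 gibberellin 2-oxidases, which inactivate gibberellins, 2 were higher, and ppt_117714 had 3.26, 2.51 and 2.12 CPM in ES1, against 0.523, 0.554 and 1.46 CPM in PC (log2 fold change 1.63 ± 0.46 SE, adjusted p = 0.015), a call lost without ES1 A (1.42) and larger without PC 3 (2.28). GASA2, a small gibberellin-regulated peptide, was higher in 4 copies, which summed to 26.98, 22.8 and 18.9 CPM in ES1, against 0, 0.139 and 1.22 CPM in PC. Amido synthetases of the GH3 type, which conjugate auxin to amino acids, had 5 of 6 members lower, but the 4 copies of GH3.6 summed to 69.02, 59.4 and 87.5 CPM in ES1, against 104, 130 and 269 CPM in PC, with PC 3 far above the others. The 3 SAUR-like auxin-responsive transcripts were near 0 in PC and summed to 30.8, 25.2 and 37.3 CPM in ES1, against 0, 0.346 and 0.327 CPM in PC. A jasmonate O-methyltransferase match, an enzyme that makes volatile methyl jasmonate, had 6 copies with log2 fold changes of 4.11 to 4.20, which summed to 3455, 3448 and 3749 CPM in ES1, against 201, 240 and 161 CPM in PC. Reads may be shared among the 6. JAZ5 (ppt_87082), a repressor of jasmonate responses, also was higher (4.55), and lipoxygenase 2, which starts jasmonate synthesis, had 1 of 6 copies higher and 5 lower.

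Among nitrogen genes, asparagine synthetase was higher and the polyamine genes were lower. Asparagine synthetase, which stores nitrogen as asparagine and is a main outlet for ammonium in pine seedlings, was higher in all 15 tested transcripts under 3 names. The 10 copies named after maritime pine itself were higher by 4.13 to 4.85 on the log2 scale and summed to 389, 388 and 420 CPM in ES1, against 19.5, 20.5 and 15.9 CPM in PC. One of them (ppt_140062) had 73.8, 69.9 and 71.4 CPM in ES1, against 2.98, 3.50 and 2.70 CPM in PC (log2 fold change 4.55 ± 0.14 SE, adjusted p = 7.6e-07). In the amide and ammonium role as a whole 17 of 26 members were higher and 3 lower, and 18 come from the brown table. By name 4 of 9 were higher, since 15 of the 17 higher transcripts were asparagine synthetases, whose copies may share reads. The lower ones were ammonium transporters, while 2 copies of AMT3 member 3 were higher (4.38 and 4.40) and glutamine dumpers, which affect amino acid export, were not called.

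All 11 polyamine transcripts were lower, with a median of -2.69, and all 11 come from the blue table. Spermidine synthase, which makes spermidine from putrescine, had 5 copies summing to 40.5, 40.4 and 34.1 CPM in ES1, against 211, 233 and 220 CPM in PC. Polyamine oxidase 5, which breaks polyamines back down, had 4 copies summing to 7.79, 9.33 and 5.99 CPM in ES1, against 99.01, 91.6 and 118 CPM in PC. Synthesis and breakdown were thus lower together, and no ES1 library reached 0.5 times any PC library in either sum. Arogenate dehydratase turns arogenate into phenylalanine, and the paper describes a gene family for it in maritime pine. The 4 copies of 1 such name, a match from azuki bean, were close to absent from ES1. They summed to 0, 0.184 and 0.0921 CPM in ES1, against 72.2, 84.05 and 68.6 CPM in PC, and each was called lower (ppt_96284, adjusted p = 2.4e-06). Family members that carry no name here were not examined, so the level of the enzyme as a whole is not given. The size of the fold rests on a few counts in ES1 B and C and is not given. Homoserine kinase (ppt_161408), a step to threonine, had 16.7, 16.2 and 15.4 CPM in ES1, against 58.5, 56.6 and 55.8 CPM in PC (log2 fold change -1.82 ± 0.10 SE, adjusted p = 5.4e-06).

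Cell wall genes went both ways. The 16 copies of a xyloglucan endotransglucosylase/hydrolase (XTH) from Sitka spruce, an enzyme that loosens growing walls, were all lower (-2.64 to -1.38), and summed to 530, 505 and 589 CPM in ES1, against 1940, 2183 and 4419 CPM in PC. PC 3 held about 2 times as much as PC 1 or PC 2. One copy (ppt_169559) had 206, 214 and 228 CPM in ES1, against 877, 834 and 2084 CPM in PC (log2 fold change -2.55 ± 0.35 SE, adjusted p = 0.00035), and its log2 fold change was -1.99 without PC 3. An XTH transcript under another name (ppt_64100) was higher (4.05). For pectin, 13 of 20 members were lower and 5 higher. Polygalacturonases, which cut pectin, were lower in 8 of 10 members and higher in the 2 named after grape. Among the lower ones was ppt_107092 with 2.00, 2.32 and 2.62 CPM in ES1, against 23.4, 16.7 and 18.1 CPM in PC (log2 fold change -3.07 ± 0.21 SE, adjusted p = 1.2e-05). The pectinesterase ppt_274801 was higher with 42.98, 48.4 and 38.2 CPM in ES1, against 2.35, 3.33 and 1.16 CPM in PC (log2 fold change 4.25 ± 0.34 SE, adjusted p = 2.4e-05), as was an endoglucanase (ppt_185005) with 130, 126 and 131 CPM in ES1, against 2.22, 3.88 and 0.891 CPM in PC (log2 fold change 5.80 ± 0.42 SE, adjusted p = 1.6e-05).

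In the phenylpropanoid pathway, which feeds lignin, 22 of 30 members of the entry and monolignol steps were higher and 6 lower (median 1.78, 20 members from the brown table). Of the 22, 9 were copies of caffeic acid O-methyltransferase, which methylates lignin precursors, with log2 fold changes of 6.41 to 7.61 and sums of 998, 989 and 1123 CPM in ES1, against 7.78, 10.8 and 8.76 CPM in PC. By name the entry step was split. Phenylalanine ammonia-lyase, the entry enzyme, was higher in 2 of 3 transcripts named after grape and lower in the 3 named after pea, cherry and lemon (-1.63 to -1.15). A 4-coumarate-CoA ligase (ppt_91939) was lower with 9.96, 9.04 and 7.78 CPM in ES1, against 23.1, 23.5 and 27.4 CPM in PC (log2 fold change -1.46 ± 0.15 SE, adjusted p = 8.8e-05), while 3 of 4 transcripts under another name of that enzyme were higher. Flavonoid steps held 2 higher and 3 lower of 10 members, and 6 were lower with library size as scaling or without ES1 C (5 without PC 1).

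Defence genes parted into secreted proteins and receptors. Chitinases, which cut fungal walls and also the arabinogalactan proteins of conifer embryogenic cultures, were higher in 47 of 48 members (median 5.10), under 15 of 16 names, and 43 members come from the brown table. A class I chitinase had 9 copies that summed to 1193, 1126 and 1199 CPM in ES1, against 34.9, 29.4 and 68.2 CPM in PC. Class IV chitinase 4-4 had 12 copies that summed to 473, 438 and 458 CPM in ES1, against 11.02, 12.4 and 25.7 CPM in PC. The groups were far apart in both sums. The 1 lower member, a hydrolase with a chitinase insertion domain (ppt_93300), had 5.75, 7.23 and 6.45 CPM in ES1, against 9.12, 7.90 and 36.4 CPM in PC, so its call (log2 fold change -1.46 ± 0.56 SE, adjusted p = 0.048) rested on PC 3, without which the log2 fold change was -0.39, and it was lost without any 1 ES1 library. Other pathogenesis-related proteins had 32 of 40 higher and 8 lower (median 4.81). PR-1 (ppt_204058), a marker of defence, had 169, 149 and 122 CPM in ES1, against 4.77, 5.27 and 6.15 CPM in PC (log2 fold change 4.76 ± 0.17 SE, adjusted p = 1.1e-06). Against this direction, all 4 copies of defensin-1, an antifungal peptide, were lower and summed to 24.4, 28.6 and 25.4 CPM in ES1, against 59.6, 67.9 and 87.7 CPM in PC, and the 3 copies of PR-1C were lower as well.

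Intracellular immune receptors of the NBS-LRR type were lower in 30 of 40 members and higher in 3 (median -1.50), and 37 come from the blue table. All 7 transcripts named TIR/P-loop/LRR were lower and summed to 24.5, 20.8 and 19.7 CPM in ES1, against 55.2, 57.6 and 92.6 CPM in PC. The 15 putative TIR-NBS-LRR transcripts, with 11 lower and 1 higher, summed to 89.7, 92.2 and 105 CPM in ES1, against 168, 176 and 233 CPM in PC. Library PC 3 was highest in both, and in neither sum did the groups overlap. NB-ARC (ppt_171133), named after the nucleotide-binding domain of these receptors, was at 0 in all ES1 libraries, against 6.90, 7.41 and 7.13 CPM in PC, at least 184-fold lower in ES1 (floor of 3 counts over the group). Those higher included 2 copies of a Scots pine disease resistance protein, of which ppt_222098 had 162, 154 and 169 CPM in ES1, against 6.67, 11.6 and 8.73 CPM in PC (log2 fold change 4.16 ± 0.20 SE, adjusted p = 3.2e-06).

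Late embryogenesis abundant (LEA) proteins, which protect cells during drying, were higher in 37 of 51 members and lower in 3 (median 2.08). By name 8 of 13 were higher and 2 lower, and copies of 1 name may share reads. Not all members were called. LEA ppt_200866 had 1643, 1531 and 1513 CPM in ES1, against 1157, 1059 and 1014 CPM in PC and was not called (log2 fold change 0.54 ± 0.10 SE, adjusted p = 0.0016). A non-specific lipid-transfer protein (ppt_225858), which is not an LEA protein, was not called either (log2 fold change 0.38). The 2 transcripts of that protein type named after Sitka spruce were lower (-2.92 and -2.85). The low-temperature-induced 65 kDa protein (ppt_194441), an ABA-response protein, had 239, 231 and 207 CPM in ES1, against 55.2, 44.8 and 42.4 CPM in PC (log2 fold change 2.25 ± 0.13 SE, adjusted p = 5.8e-06). In the storage and oil body list 18 of 22 members were higher, and the 3 lower ones were all patatins, lipid-cleaving storage proteins in potato. Of the 9 names in that list 6 were higher and 2 lower. Patatin ppt_176759 had 17.3, 21.98 and 18.1 CPM in ES1, against 192, 185 and 156 CPM in PC (log2 fold change -3.21 ± 0.14 SE, adjusted p = 2.1e-06).

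Sugar and lipid genes were higher in 25 of 35 and 17 of 24 members, and terpene synthases in 22 of 26. Of the sugar names 8 of 13 were higher and 4 lower, and of the lipid names 5 of 8 were higher and 2 lower. By name the terpene synthases were split, with 3 of 6 names higher and 3 lower, and the 4 lower transcripts were 3 isopimaradiene synthases and 1 pimaradiene synthase, which make precursors of diterpene resin acids. Of these ppt_132647 and ppt_45280 were at 0 in ES1, against 83.2 ± 2.41 and 11.05 ± 2.02 CPM in PC (SD, n = 3), at least 2146- and 285-fold lower in ES1. Sucrose synthase (ppt_146786), which splits sucrose, and alpha-amylase (ppt_249192), which degrades starch, were among the 9 lower sugar members, with log2 fold changes of -1.20 and -1.19. Inositol oxygenase (ppt_73953), which makes wall sugar precursors, had 82.7, 74.02 and 84.8 CPM in ES1, against 4.35, 3.85 and 2.91 CPM in PC (log2 fold change 4.44 ± 0.17 SE, adjusted p = 1.4e-06). Redox enzymes split into 24 higher and 19 lower of 47. Non-symbiotic hemoglobin 1 (ppt_126446), which removes nitric oxide and rises under low oxygen, had 226, 212 and 186 CPM in ES1, against 0.752, 0.693 and 2.05 CPM in PC (log2 fold change 7.45 ± 0.37 SE, adjusted p = 3.5e-06). The fold was larger without PC 3 (8.16). Ascorbate oxidase differed by name. One transcript (ppt_69815) was lower, with 19.2, 22.7 and 20.8 CPM in ES1, against 76.4, 90.04 and 58.6 CPM in PC (log2 fold change -1.84 ± 0.17 SE, adjusted p = 4.7e-05). Under another name, L-ascorbate oxidase from tree cotton, all 5 copies were higher (4.74 to 5.22). They summed to 888, 809 and 1189 CPM in ES1, against 31.2, 41.2 and 11.6 CPM in PC. Metal and ion transporters had 15 of 29 members higher and 6 lower, among them boron exporters (ppt_96082, -1.84). Exporters of compounds were nearly balanced, with 11 higher and 12 lower of 25, and PDR12 (ppt_112469), whose *Arabidopsis* namesake takes up ABA, had 16.4, 16.7 and 18.6 CPM in ES1, against 165, 206 and 186 CPM in PC (log2 fold change -3.43 ± 0.12 SE, adjusted p = 1e-06).

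Some transcripts were found in only 1 of the 2 embryo types. With 0 counts in all 3 libraries of a type and a mean of at least 10 CPM in the other, 30 transcripts were found in ES1 alone and 63 in PC alone. With the absent type set to 3 counts in total, they were at least 316- to 7683-fold higher in ES1 and at least 258- to 2146-fold lower in ES1. Of the 30, 21 were also at 0 in EC, and 17 were at 0 in all 9 zygotic libraries. Of the 63, 40 were also at 0 in ES2, and 29 were at 0 in all 9 somatic libraries. A name was given for 10 and 6 of them. A copper transporter 5-like protein (ppt_31157) had 18.9, 16.7 and 15.1 CPM in ES1, against 0 in all PC libraries, at least 525-fold higher in ES1. Exostosin-like protein (ppt_250365), of a family of wall glycosyltransferases, had 0 in all ES1 libraries, against 10.3, 10.4 and 11.7 CPM in PC, at least 278-fold lower in ES1. WAT1-related protein (ppt_217559), of a transporter family named after a vacuolar auxin carrier, had 0 in all ES1 libraries, against 13.6, 13.4 and 13.6 CPM in PC, at least 348-fold lower in ES1. An oxidoreductase (ppt_132966) and a DETOXIFICATION transporter (ppt_102141) were likewise counted in PC alone, at 16.1 ± 1.47 and 15.5 ± 5.86 CPM (SD, n = 3), at least 414.5- and 399.8-fold lower in ES1. All 9 somatic libraries come from 1 line. For the 29 transcripts at 0 in all of them, an allele or gene that this line lacks and one that it does not express cannot be told apart. The rest of the 63 had counts in ES2 or ES3 of the same line. Whether those counts are reads shared with similar transcripts was not tested.

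Transcripts of the same name mostly moved together. Of 334 names with at least 2 tested transcripts, 265 had at least 2 calls, and 247 of these had all calls in 1 direction. The other 18 names, with 98 transcripts, had calls in both directions. In histone H3.3 ppt_231182 had 1.97, 1.33 and 3.87 CPM in ES1, against 46.04, 53.2 and 37.8 CPM in PC (log2 fold change -4.28 ± 0.36 SE, adjusted p = 3.1e-05) and ppt_219715 had 39.6, 32.1 and 54.9 CPM in ES1, against 7.06, 19.3 and 5.94 CPM in PC (log2 fold change 1.97 ± 0.44 SE, adjusted p = 0.005). That higher copy had a log2 fold change of 2.70 without PC 2. Lipoxygenase 2 (ppt_146194) had 28.8, 22.6 and 29.2 CPM in ES1, against 0, 0.277 and 0.178 CPM in PC (log2 fold change 7.44 ± 0.50 SE, adjusted p = 1.1e-05), against log2 fold changes of -1.68 to -1.23 in the other 5 copies. In patatin from Chinese pine ppt_109960 was higher and ppt_78747 lower, with log2 fold changes of 2.44 and -1.40. The 7 receptor-like kinases matched to *Morus* had 3 higher (1.34 to 1.56) and 4 lower (-2.08 to -1.68). Whether such transcripts are separate genes, alleles or assembly isoforms is not given in the sources used here, nor is how reads that fit several of them were counted.

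**Figure D3:**
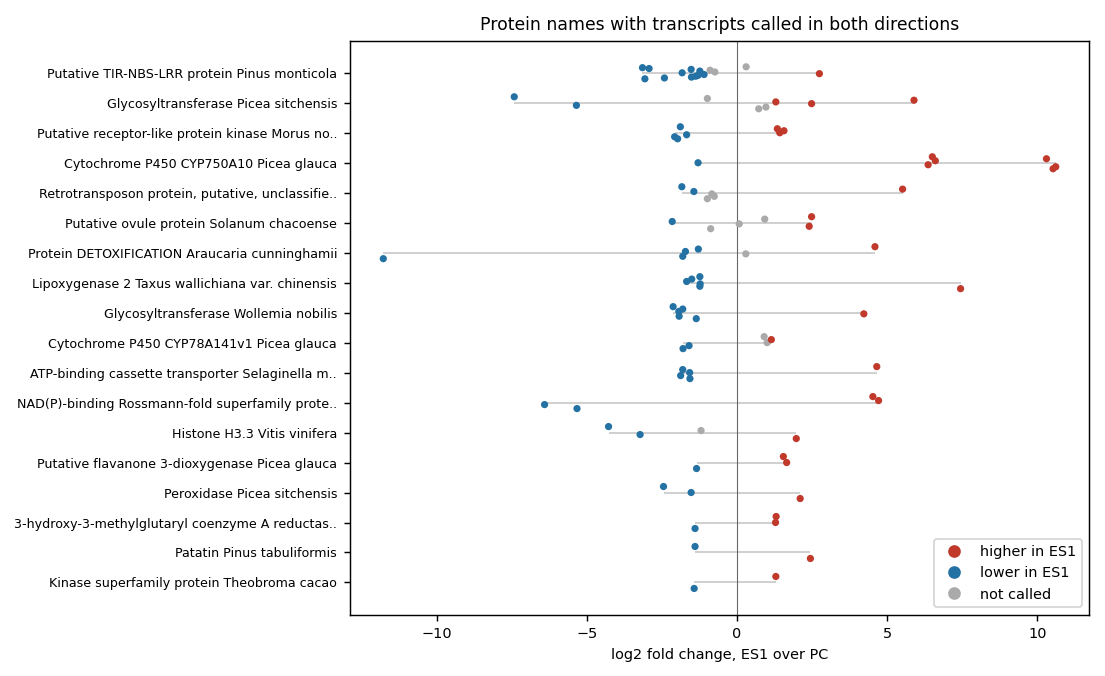
Log2 fold change, ES1 over PC, of every tested transcript (points) of the 18 protein names that hold calls in both directions, 1 name per row with a line from its lowest to its highest value. In lipoxygenase 2 and ATP-binding cassette transporter 1 copy lies far to the right of the others, and in the TIR-NBS-LRR name 1 of 15.

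The difference between embryo types was mostly kept at the next pair of stages. Of the transcripts tested here, 5050 were higher and 3747 lower in ES2 than in EC, and 4270 were higher and 2649 lower at both pairs. A test of the difference itself, over the 12 libraries, called 766 transcripts (3.39%) in which ES1 over PC exceeded ES2 over EC and 474 (2.1%) in which it fell below. With library size alone as scaling these counts were 1102 and 350. In 499 of the first the transcript was higher in ES1, and in 206 of the second as well. Asparagine synthetase stood out among names, with all 10 maritime pine copies called. For ppt_140062 the ES1-PC difference of 4.55 compared with 7.64 between ES2 (133 ± 5.76 CPM) and EC (0.680 ± 0.194 CPM), and the 2 differed by -3.07 ± 0.23 SE, adjusted p = 3.7e-05. In the opposite sense, all 6 jasmonate O-methyltransferase copies had the larger difference at the first pair, and ppt_168573 averaged 898 ± 64.3 CPM in ES2 and 137 ± 25.6 CPM in EC (difference of the log2 fold changes 1.46 ± 0.21 SE, adjusted p = 0.0013). FT-like protein (ppt_247234) averaged 121 ± 25.7 CPM in ES1, 7.22 ± 2.24 CPM in PC, 11.3 ± 3.73 CPM in ES2 and 2.95 ± 0.406 CPM in EC (2.16 ± 0.39 SE, adjusted p = 0.0052). Cytokinin receptors, lower in ES1, had a median of -0.68 in ES2 against EC, and 0 of the 7 members were called in the test of the difference. DNA methylation members had a median of -1.52 in ES2 against EC, with 18 of 18 lower, and origin licensing one of -1.46, with 27 of 27 lower, and 0 members of either were called in that test.

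Only 15 transcripts were called in opposite directions at the 2 pairs, 9 higher in ES1 and lower in ES2 and 6 the reverse, and none of them has a name. The clearest (chosen after its values were seen) was ppt_72001, with 102, 77.6 and 54.3 CPM in ES1, against 300, 351 and 355 CPM in PC (log2 fold change -2.10 ± 0.22 SE, adjusted p = 8.2e-05), against 653 CPM in ES2 and 151 CPM in EC on average.

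**Figure D4:**
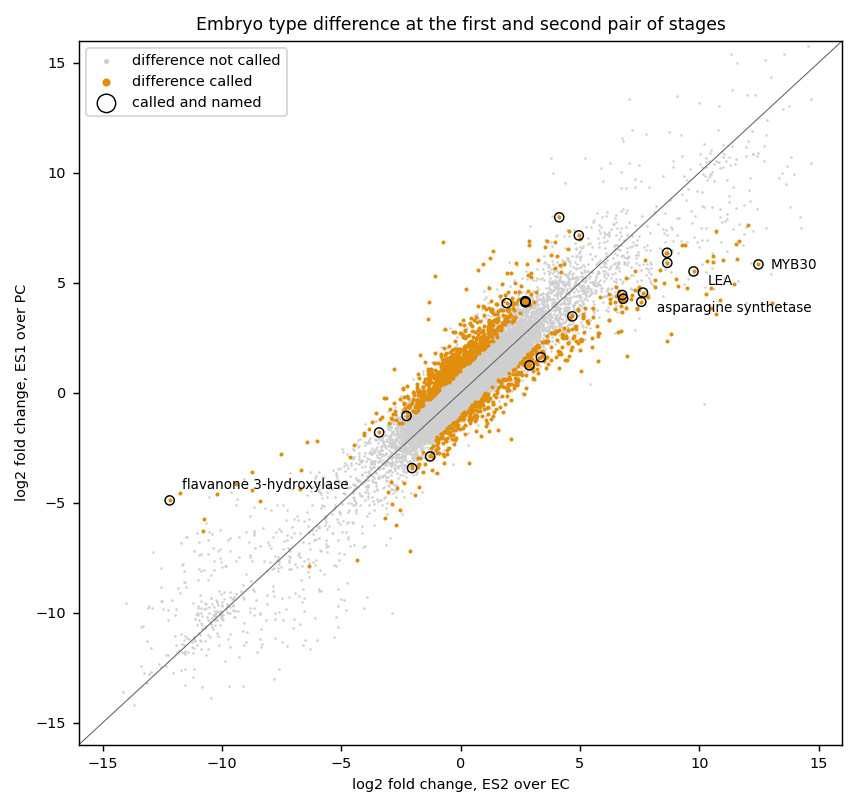
Log2 fold change of ES1 over PC (vertical axis) against that of ES2 over EC (horizontal axis) for the 22588 tested transcripts, with those called in the test of the difference in orange, 22 named ones of these ringed, and the line of equal change. Most points follow the line, and asparagine synthetase and MYB30 lie below it on the right.

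Organelle transcripts, which mostly lack the long poly(A) tails that oligo(dT) selects, were few. Of 4 tested, 2 were higher in ES1, among them photosystem I P700 (ppt_188769) with 4.42, 4.06 and 5.53 CPM in ES1, against 1.47, 1.21 and 1.46 CPM in PC (log2 fold change 1.75 ± 0.27 SE, adjusted p = 0.00074). The other 2, cytochrome c oxidase subunit 3 and NADH-ubiquinone oxidoreductase chain 1, had 13.2 and 7.66 CPM in ES1, against 38.8 and 30.8 CPM in PC, and were not called, but both were called lower without PC 2 and 1 with library size as scaling. Whether RNA selection had a part in other results was not tested. No marker of megagametophyte, suspensor or seed coat is among the names, so the part of such tissue in the PC libraries was not tested.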

How the data were processed

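Messenger RNA was selected with oligo(dT) and sequenced on an Illumina NovaSeq. The authors demultiplexed reads with bcl2fastq, trimmed them with SeqTrimBB, assembled transcripts with Trinity, clustered them with CD-HIT-EST, mapped reads with BWA MEM and deposited raw counts per transcript made with sam2counts. For bcl2fastq and BWA the version is not given in the sources, nor is the handling of reads that fit several transcripts. The counts were tested as deposited, with edgeR 4.0.16 in R 4.3.3 (TMM scaling, quasi-likelihood test, Benjamini-Hochberg adjustment), on transcripts above 2 CPM in at least 3 of the 6 libraries. Depth per library is given in the report, and precision is that of 3 libraries per group. Calls were made at 0.05 on the adjusted p with at least a 2-fold difference. SE was taken from the fold change and the F statistic (their quotient, with the root of F). The difference of differences was an interaction term over 12 libraries. Protein names came from the study's module tables. Named transcripts were up to 2 higher and 2 lower calls per gene role of lowest p (1 per name), the 10 largest changes per direction with a mean of at least 10 CPM, the 8 of highest CPM in each group, the top call of each hub factor family, the 5 lowest p per direction of the interaction, and copies that a statement on 1 name turns on. CUP-SHAPED COTYLEDON 2, ppt_72001 and members given only by a list's values fell outside this rule. Members and lists were chosen with earlier results of these data known. Alternatives were DESeq2 1.42.0 (its test and its size factors), library size, other thresholds and filters, fits over more libraries, leaving out each library and a replicate block. The tests were tried on simulated data, where 100 of 100 transcripts changed by 4-fold were recovered for ES1 against PC and 93 of 100 for the interaction. These data had the same dispersion for every transcript, and only transcripts with an expected count of at least 50 were changed. Recovery of changes near 2-fold, or of transcripts with few counts or uneven libraries, was not tested. No transcript sequence was used here.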

Additional observations from a re-analysis of the deposited data

Results flagged for a closer look

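For 22 named transcripts the difference between embryo types itself differed between the 2 pairs of stages, by the interaction test over 12 libraries (edgeR, adjusted p under 0.05 and a value beyond 1). Values below are the log2 fold change ES1 over PC minus that of ES2 over EC. Asparagine synthetase, which stores nitrogen as asparagine, had values of -3.07 (ppt_140062), -3.42 (ppt_140063) and -2.52 (ppt_51012). The other transcripts that were higher in ES1, and by more still in ES2, covered several roles. They were an LEA protein (ppt_93454, -4.22), the 2S globulin seed storage protein (ppt_123612, -2.73), inositol oxygenase (ppt_73953, -2.31), thaumatin L6, a defence protein (ppt_53320, -2.27), ACC synthase, which makes the ethylene precursor (ppt_150240, -1.73), an ERF1-like factor (ppt_109022, -1.62) and a DNA polymerase epsilon match (ppt_218516, -1.20). MYB30 (ppt_241345) had -6.63, a size that depends on the prior count since EC was at 0, with 12.4 ± 1.84 CPM in ES1, 0.211 ± 0.131 CPM in PC and 22.3 CPM in ES2 on average.

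A larger difference at the first pair was found for 3 jasmonate O-methyltransferase copies (ppt_168568, 1.42, ppt_168572, 1.42, and ppt_168573, 1.46), inorganic pyrophosphatase 2 (ppt_131195, 2.22), FT-like protein (ppt_247234, 2.16) and ERF1A (ppt_68794, 3.87). The size for ERF1A rests on almost no counts in PC, with means of 6.45 CPM in ES1, 0.0198 CPM in PC, 9.88 CPM in ES2 and 0.541 CPM in EC. Inorganic pyrophosphatase 2 averaged 580 CPM in ES1, 4.09 CPM in PC, 160 CPM in ES2 and 5.22 CPM in EC. Among transcripts lower in ES1, the ammonium transporter ppt_165309 (1.23) and a glycosyltransferase (ppt_95414, 1.63) were lower still in ES2, and PDR12 (ppt_112469, -1.37) and a DETOXIFICATION transporter (ppt_124630, -1.60) less so. Flavanone 3-hydroxylase (ppt_120253), an early flavonoid step, had 7.32, which also depends on the prior count, with means of 0.458 CPM in ES1, 14.2 CPM in PC, 0 in ES2 and 18.4 CPM in EC. Of these calls, those of ppt_123612, ppt_165309 and ppt_68794, were lost on leaving out single libraries of any of the 4 groups. In the fit over all 18 libraries 6 of the 22 calls were lost (ppt_112469, ppt_123612, ppt_150240, ppt_165309, ppt_218516 and ppt_51012), with a replicate block 3 (ppt_123612, ppt_150240 and ppt_165309) and with DESeq2 size factors 1 (ppt_165309).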

How the results depend on the processing

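No named transcript reversed under any setting. The counts of 5303 higher and 3373 lower transcripts moved most with the threshold. They were 4096 and 2205 by edgeR's test against a fold of 2, 7389 and 6981 with no fold threshold, and 2949 and 1334 beyond a log2 fold change of 2, where 432 list members (757 before) and 7 names with both directions (18 before) were left. Leaving out 1 library gave 5121 to 5377 higher and 3263 to 3466 lower. The median log2 fold change of -0.04 was -0.19 with library size alone, 0.01 over all 18 libraries, -0.02 over 15 libraries without the last stage, and -0.06 to -0.02 on leaving out 1 library. Summed by name, 301 list entries were called, a number that falls because copies are merged. At a mean of at least 5 CPM, 178 transcripts were found in 1 embryo type only, 63 in ES1 and 115 in PC. The interaction counts of 766 and 474 were 1102 and 350 with library size alone, 1030 and 699 by DESeq2's test, 469 and 239 over all 18 libraries, 587 to 890 and 351 to 497 on leaving out 1 library, and the lower count was 831 with no fold threshold. Deviations from the group mean correlated at -0.43 to 0.376 between same-labelled libraries of the 2 stages of a type, and at -0.44 to 0.587 between differently labelled ones. With 3 libraries per group these values cannot settle whether replicate letters and numbers pair the libraries. A replicate block gave interaction counts of 532 and 325. Transcripts near 0 in 1 embryo type limit the fold, not the direction.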

Other observations

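Some transcripts outside the lists also differed. A multi-copper oxidase-like protein (ppt_252133), of a family that includes laccases and ascorbate oxidases, had a mean of 1010 CPM in ES1, against 50.3 CPM in PC, a difference of 4.33 ± 0.28 on the log2 scale (SE, edgeR adjusted p = 9.8e-06). An LRR receptor-like kinase (ppt_136440) averaged 308 CPM in ES1 and 791 CPM in PC (-1.36 ± 0.11 SE, edgeR adjusted p = 2.9e-05). An isoleucine-tRNA ligase (ppt_239068), a housekeeping enzyme of protein synthesis, had 0, 0 and 0.0460 CPM in ES1, against 34.5, 49.2 and 64.6 CPM in PC. Other transcripts of this enzyme were not examined, so its level as a whole is not given. The ES1 libraries come from 1 line, so an allele or copy that this line lacks and one that it hardly expresses cannot be told apart.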
